A study of Mus musculus with 12 samples.

Results

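The genes described here are Rgs2 and Zfp36l1 in cultured mouse hepatocytes, 2 of the 18193 genes measured. Their members were all probe sets that the array annotation gives to either symbol alone, which are 4 for Rgs2 (1419247_at, 1419248_at, 1447830_s_at and 1443250_at) and 2 for Zfp36l1 (1450644_at and 1422528_a_at), out of 45101 probe sets on the array. They were picked because their signal changed with TCDD once vehicle and TCDD arrays of the same replicate number were paired, so their TCDD changes are given below as a description and carry no test.

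The study exposed primary hepatocytes to TCDD, a dioxin that activates the aryl hydrocarbon receptor (AHR), and measured RNA on 12 Affymetrix arrays, 3 in each of 4 groups. The first pair of groups, called human AHR here, came from B6.Cg mice that carry the Ahrtm3.1Bra allele together with the transgenes Alb-cre and Ttr-AHR (1Ghp), and their cells received 10 nM TCDD or DMSO vehicle for 6 h. In that strain Cre driven by the albumin promoter removes the floxed mouse Ahr from hepatocytes, and the transthyretin promoter drives a human AHR transgene, so the receptor is under neither its own promoter nor its own locus. The second pair came from C57BL6/J mice, called wild type, with the same 2 treatments; these carry the mouse receptor and neither the floxed allele nor the transgenes. All 4 groups had been kept for 48 h in a serum-free medium that itself held DMSO and dexamethasone. The labels call the samples of a group biological replicates and give neither sex nor age of the animals, and each array is stated to come from a mouse of its own.

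RGS2 is a regulator of G protein signalling. Proteins of this family speed up GTP hydrolysis by G protein alpha subunits and so shorten the signal of hormone receptors, and RGS2 acts with preference on the Gq class, through which vasopressin, angiotensin and adrenaline raise calcium in hepatocytes. Its gene is known as one that cAMP and other stimuli switch on quickly. ZFP36L1 is an RNA-binding protein with paired CCCH zinc fingers that grips AU-rich elements in mRNAs and recruits the CCR4-NOT deadenylase, which shortens the poly(A) tail and leads to decay. In mouse liver it is known to hold down the mRNA of Cyp7a1, the rate-limiting enzyme of bile acid synthesis.

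Rescaled to a common trimmed mean, the 12 arrays had median signals of 16.5 to 23.5. Within a group, any pair of arrays correlated over genes at 0.958 or more. Cyp1a1, the classical AHR target, stood at 6624, 4004 and 6939 in the human AHR TCDD arrays against 60.5 to 81.9 under vehicle. In wild type it stood at 124.9, 2518 and 64.89 with TCDD against 18.5 to 25.3 under vehicle, so replicate 2 was far above the other TCDD arrays. The wild type replicate 2 arrays also stood apart in Xist, a transcript of female cells, at 2952 with TCDD and 3085 under vehicle, against at most 29.3 in the other arrays. The wild type change and the genotype difference of Rgs2 and Zfp36l1, on the brightest probe set, are also given without these 2 arrays. So are the adjusted p of Tiparp, that of Cyp1a1 in human AHR cells, and some counts of called genes. The other wild type values below, with those of the gene lists, include both arrays. The mouse Ahr probe set read 192.8 to 235.9 in human AHR arrays, against 243.3, 442.3 and 223.4 in wild type TCDD arrays and 261.3, 616.7 and 244.7 in wild type vehicle arrays; where it lies relative to the deleted part is not known here, so it does not check the labels. Hepatocyte markers were high throughout, with Alb between 10480 and 16070 on all arrays.

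The promoter of Rgs2 is shown first because short binding elements are known for AHR, which TCDD activates, and for the factors that act on cAMP-responsive genes. The 250 bases before its start, from RefSeq on build GRCm38.p6, lie on the minus strand at chr1:144004150-144004399. Capitals mark matches to GCGTG, the core that AHR and its partner ARNT recognise, and to TGACG, the shorter form of the cAMP response element, on either strand.
Rgs2: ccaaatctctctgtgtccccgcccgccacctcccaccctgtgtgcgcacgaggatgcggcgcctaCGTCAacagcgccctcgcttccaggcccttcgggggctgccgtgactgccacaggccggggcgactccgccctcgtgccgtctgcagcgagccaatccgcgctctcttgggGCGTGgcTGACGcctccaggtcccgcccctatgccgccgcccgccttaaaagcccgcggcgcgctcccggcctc
Counted from the start, the GCGTG match begins at base -74 and a TGACG match follows at -67, without overlap. The other TGACG match, at -185, lies on the opposite strand. Of 32851 promoters in the table, 28.16% hold GCGTG and 17.77% hold TGACG in the same window. Neither the longer TTGCGTG, held by 0.9254% of promoters, nor the full TGACGTCA, held by 1.546%, is in this window. The stretch is rich in G and C, at 72.4% against a median of 52.4% over all promoters. A match of letters is a description and shows no binding.

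Rgs2 was lower with TCDD in every same-numbered pair of arrays in both genotypes. Its brightest probe set, 1419247_at, read 99.2, 45.6 and 60.4 in the human AHR TCDD arrays, replicates 1 to 3. The human AHR vehicle arrays read 467.8, 91.7 and 341.7. Every TCDD array lay below its own-numbered vehicle array, but the groups overlapped, because vehicle replicate 2 at 91.7 lay just under TCDD replicate 1 at 99.2. The wild type TCDD arrays read 79.23, 249.7 and 44.37, against 227.3, 1035 and 283.5 in the wild type vehicle arrays. Here too the groups overlapped only through replicate 2, whose TCDD array at 249.7 stood above vehicle replicate 1.

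On the log2 scale of the signal plus 16, the human AHR pairs changed by -2.07, -0.81 and -2.23, and the wild type pairs by -1.35, -1.98 and -2.31. The smallest change was thus that of human AHR pair 2, which also had the lowest vehicle signal. The fitted change was -1.70 (standard error 0.65) in human AHR cells, 3.25-fold lower, and -1.88 (0.65) in wild type cells, 3.69-fold lower. Of all genes, 360 of 18193, or 1.98%, were lower in all 6 pairs, as Rgs2 was, and 2.22% were higher in all 6. That contrast chose the gene, so the count is its setting and not support.

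**Figure D1:**
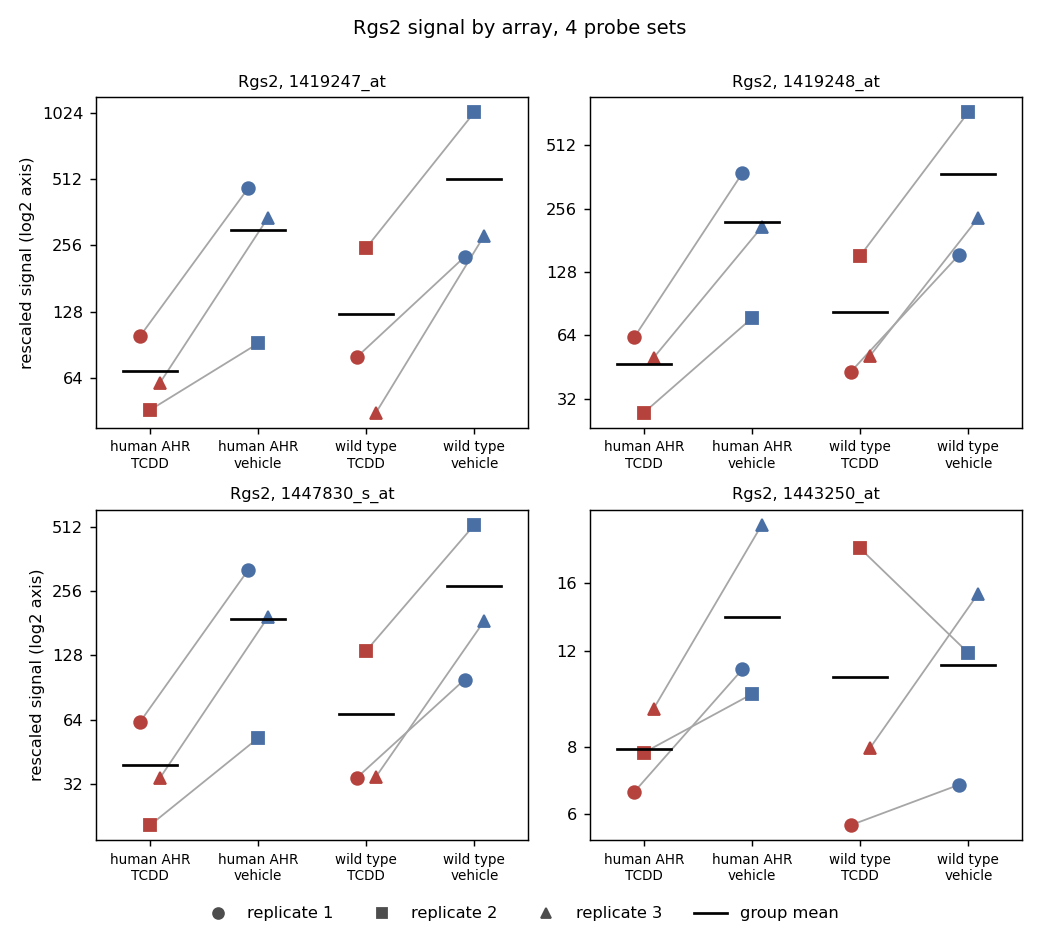
Rescaled signal of the 4 Rgs2 probe sets on each of the 12 arrays (vertical log2 axis), in 4 groups, with grey lines joining arrays of the same genotype and replicate number and black bars for group means. In the 3 brighter probe sets each of the 6 lines runs lower on the TCDD side, while 1443250_at stays at or below 20.5.

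The other probe sets of Rgs2 hybridised to the same RNA, so they are no independent measurement, but they show how firmly the array reads this transcript. Probe set 1419248_at read 62.7, 27.5 and 50.2 in human AHR TCDD arrays against 378.1, 77.5 and 209.7 under vehicle. In wild type it read 42.87, 153.2 and 51.21 with TCDD against 153.9, 737.2 and 231.4 under vehicle. All TCDD arrays lay below all vehicle arrays in both genotypes, a state that 3.85% of genes reached in human AHR and 2.81% in wild type cells. The wild type gap was narrow, with TCDD replicate 2 at 153.2 just under vehicle replicate 1 at 153.9.

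Probe set 1447830_s_at, whose suffix marks probes that can match more than 1 transcript, gave overlapping groups in both genotypes, again only through replicate 2. It averaged 38.97 ± 21.55 in human AHR TCDD arrays and 189.8 ± 135.7 under vehicle (SD, n = 3 each). In wild type it averaged 67.76 ± 58.02 with TCDD and 270.2 ± 225.9 under vehicle (SD, n = 3 each). Its fitted changes were -1.70 and -1.68. Across the 12 arrays it tracked 1419247_at with r = 0.985 and 1419248_at with r = 0.991, as a measure of likeness between readings of the same RNA. The fourth probe set, 1443250_at, lay between 5.73 and 20.5 on all arrays, whose median signals were 16.5 to 23.5. It was lower with TCDD in 3 of 3 human AHR pairs and 2 of 3 wild type pairs, with fitted changes of -0.30 and -0.05.

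Rgs2 stood at the bottom of the whole table in both genotypes. No other of the 18193 genes had a more negative fitted change in human AHR cells, where the next were Igha at -1.27 and Acta2 at -1.15. The same held in wild type cells, which share no array with the human AHR comparison and where the next were Sorbs2 at -1.64 and Sprr1a at -1.47. These places are a description, since the gene was chosen for its fall. They also depend on the offset that damps dim genes: with an offset of 1 in place of 16 Rgs2 stood at place 41 from the bottom in human AHR and 10 in wild type cells, and at place 1 for the mean of both. Without both wild type replicate 2 arrays it stood at place 5 in wild type cells, with a change of -1.83.

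Rgs2 varied widely between arrays of 1 group. Its SD within groups was 1.00 on the log2 scale, against a median of 0.24 among the 500 genes nearest to it in mean level, and 99.6% of those genes had a smaller SD. The highest vehicle array was 5.10 times the lowest in human AHR and 4.55 times in wild type cells. Part of the excess ran with replicate 2, the highest wild type array and the lowest human AHR array under both treatments. Wild type replicates 1 and 3 changed order, at 227.3 and 283.5 under vehicle and 79.23 and 44.37 with TCDD. Over all genes the same-numbered wild type arrays deviated together with r = 0.25, 0.508 and 0.0485. Wild type TCDD replicate 3 deviated more closely with vehicle replicate 1, at r = 0.283, than with its own-numbered vehicle array. The wild type numbers are therefore not established as pairs, and changes and counts by wild type pair are a description. The error of the fit depends on whether the numbers are used as pairs. The standard error of the TCDD change averaged over genotypes was 0.46 without the replicate number in the fit and 0.19 with it, at the same log2 change of -1.79.

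Those paired values are what chose the members. With the replicate number as a block, Rgs2 had an adjusted p of 0.0181 for the change averaged over genotypes, in limma over all genes, and was 1 of 6 genes under 0.05 (0.033% of those tested). Just inside stood Cyp1a1 at 0.0192 and just outside Zfp36l1 at 0.0677. Zfp36l1 was chosen on the human AHR change, at an adjusted p of 0.0362, 1 of 5 genes under 0.05 (0.0275%), with Ecel1 just outside at 0.104. Without the block the fit gave Rgs2 0.872 for the averaged change and Zfp36l1 0.868 for the human AHR change. All of these stand here only to show how the genes were picked.

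The level of Rgs2 between genotypes did not enter that choice, because the mean over both treatments leaves the TCDD change out. Averaged over treatments, human AHR cells differed from wild type cells by -0.59 (standard error 0.46, 95% interval -1.58 to 0.41, limma adjusted p = 0.965). The exact two-sided permutation test over 6 against 6 arrays gave p = 0.446. Its shuffles kept neither treatment nor replicate number, so the TCDD change of Rgs2 widened the spread it compared against. It also counted same-numbered arrays as separate units. In the limma comparison of genotypes 0.033% of genes were called in either direction. The difference was -0.50 among TCDD arrays and -0.68 among vehicle arrays, and the genotypes overlapped under either treatment; 4.88% of genes were lower without overlap in human AHR cells under TCDD and 4.44% under vehicle. Without both wild type replicate 2 arrays the difference was 0.04.

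The promoter window of Zfp36l1, shown for comparison, lies on the minus strand at chr12:80113014-80113263 of GRCm38.p6, again from RefSeq, and holds none of the 4 motifs searched, so it has no capitals.
Zfp36l1: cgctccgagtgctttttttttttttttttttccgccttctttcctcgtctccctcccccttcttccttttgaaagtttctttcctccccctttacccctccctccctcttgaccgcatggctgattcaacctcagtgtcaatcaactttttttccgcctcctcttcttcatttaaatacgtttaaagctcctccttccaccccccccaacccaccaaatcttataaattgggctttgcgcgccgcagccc
It has long runs of pyrimidines on the printed strand and 48.4% G and C. A GCGTG match begins at base 36 after the start, outside the printed window; with the 50 bases after the start counted in, 32.39% of promoters hold that core.

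Zfp36l1 was higher with TCDD in human AHR cells, and mixed in wild type cells. Its brightest probe set, 1450644_at, read 2163, 1603 and 1680 in the human AHR TCDD arrays, against 791.3, 667.3 and 635.6 under vehicle. Even the lowest TCDD array stood well above the highest vehicle array, so the groups did not overlap, a state reached upward by 3.35% of genes. The wild type TCDD arrays read 776.7, 1925 and 815.7, against 635.1, 1052 and 891.1 under vehicle. Of these, TCDD replicate 2 alone lay above every vehicle array, and replicate 3 was below its own-numbered vehicle array. The wild type groups thus overlapped, whereas 6.19% of genes were higher in wild type cells without overlap.

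The human AHR pairs changed by 1.43, 1.25 and 1.38 on the log2 scale, close to one another, while the wild type pairs changed by 0.28, 0.86 and -0.13. The fitted change was 1.35 (standard error 0.29) in human AHR cells, 2.55-fold, and 0.34 (0.29) in wild type cells, 1.27-fold. The fitted difference of these changes, human AHR minus wild type, was 1.01 (0.41). It was not tested, because the human AHR change that enters it chose the gene. Without both wild type replicate 2 arrays the wild type change was 0.08, and without the TCDD array of that number alone it was -0.08. By fitted size Zfp36l1 stood at place 8 from the top in human AHR cells and at place 1916 of 18193 in wild type cells.

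**Figure D2:**
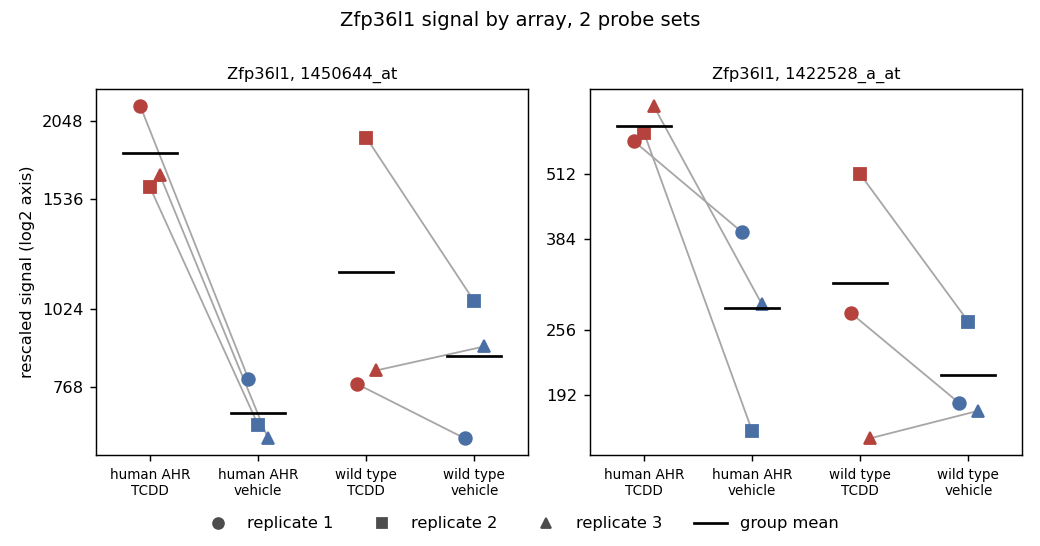
Rescaled signal of the 2 Zfp36l1 probe sets on each of the 12 arrays (vertical log2 axis), in 4 groups, with grey lines joining arrays of the same genotype and replicate number and black bars for group means. The human AHR TCDD arrays lie above the human AHR vehicle arrays in both panels, and the wild type groups overlap.

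The dimmer probe set, 1422528_a_at, whose suffix marks alternative transcripts of 1 gene, also had its highest mean in the human AHR TCDD group. It read 593.3, 616.9 and 694.8 in human AHR TCDD arrays against 395.5, 163.5 and 287.4 under vehicle, without overlap. In wild type it read 276.5, 512.5 and 158 with TCDD against 185.3, 265.7 and 178.6 under vehicle, again with pair 3 turned the other way. Its fitted changes were 1.20 in human AHR and 0.43 in wild type cells. The likeness of the 2 probe sets over the 12 arrays was r = 0.827, lower than among the bright Rgs2 probe sets.

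Between genotypes, averaged over treatments, Zfp36l1 differed by 0.24 (standard error 0.20, 95% interval -0.21 to 0.68, limma adjusted p = 0.967). The exact two-sided permutation test over 6 against 6 arrays gave p = 0.539, again with shuffles that kept neither treatment nor replicate number. The difference was 0.74 among TCDD arrays and -0.27 among vehicle arrays, with overlap between genotypes under both; under vehicle 6.28% of genes were higher in human AHR cells without overlap. Without both wild type replicate 2 arrays the averaged difference was 0.52. Probe set 1422528_a_at differed by 0.73 (95% interval 0.20 to 1.25). In limma over all probe sets its p was 0.01003 unadjusted and 0.838 adjusted, and the exact permutation test gave p = 0.0909. On that probe set all human AHR TCDD arrays lay above all wild type TCDD arrays, which 3.23% of genes did. The within-group SD of Zfp36l1 was 0.43, against a median of 0.20 among 500 genes of like level, of which 91.8% had a smaller one.

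Set beside the 2 best known AHR responses, the members moved in different ways from pair to pair. In human AHR cells Cyp1a1 changed by 6.08, 5.67 and 6.51 and Tiparp, an AHR-induced ADP-ribosyltransferase, by 1.40, 1.35 and 1.36. In wild type cells Cyp1a1 changed by 1.77, 5.99 and 1.23 and Tiparp by 0.87, 1.85 and 1.20. Zfp36l1 followed the order of Cyp1a1 within wild type cells, with pair 2 highest, then pair 1, then pair 3. Rgs2 did not: its deepest wild type fall, -2.31, was in pair 3, where Cyp1a1 changed least. In human AHR cells it was the other way round: the depth of the Rgs2 fall followed the order of Cyp1a1, pair 3, then pair 1, then pair 2, and Zfp36l1 did not. With 3 pairs a genotype such orders are a description.

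**Figure D3:**
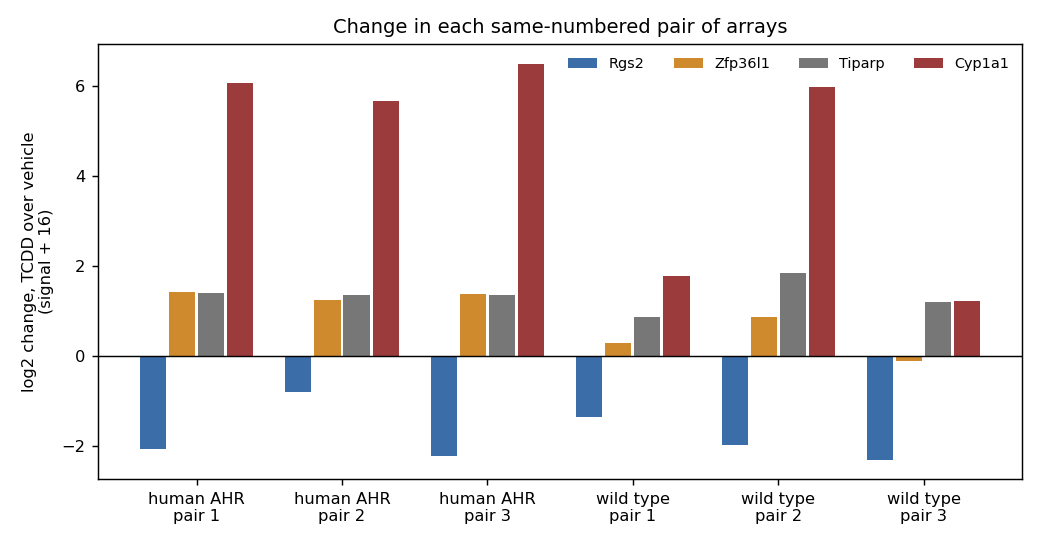
Log2 change of TCDD over vehicle (signal plus 16) in each same-numbered pair of arrays, 3 pairs a genotype, as bars from 0 for Rgs2, Zfp36l1, Tiparp and Cyp1a1. Rgs2 is negative in all 6 pairs, and Zfp36l1 is at 1.25 to 1.43 in human AHR pairs and at -0.13 to 0.86 in wild type pairs.

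No other gene of the RGS family passed the limma test with TCDD. Of 18 further members measured, 6 were positive and 12 negative in human AHR cells with a median log2 change of -0.06, and 12 were positive and 6 negative in wild type cells with a median of 0.06. Over all genes the medians were -0.01 and 0.03, and 0.022% and 0.0055% of genes were called. At an unadjusted p under 0.05 the family had 1 gene in each genotype, 5.56% of its members, against 2.9% of all genes in human AHR and 4.18% in wild type cells, so the count stands near the background. In human AHR cells this was Rgs9, at 58.43 with TCDD against 107.7 under vehicle, a log2 change of -0.75 (limma adjusted p = 1) beside 0.27 in wild type cells. In wild type cells it was Rgs14, at 0.72 (limma adjusted p = 0.966) beside -0.29 in human AHR cells. Rgs16, a family member known to follow feeding and fasting in liver, had group means of 19.6 to 37.47. It stood at -0.65 in human AHR and -0.04 in wild type cells.

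The listed genes of G protein signalling, of the Gq class and others, did not pass either. Among 21 measured genes of G protein subunits, phospholipase C beta and the IP3 receptors, 0 were called in limma and 0 had an unadjusted p under 0.05 in either genotype, with medians of 0.01 in human AHR and -0.06 in wild type cells. Gna11, an alpha subunit of the Gq class, averaged 902.5 with TCDD against 953.7 under vehicle in human AHR cells, and 827 against 943.2 in wild type cells. Gnb2, a beta subunit, stood at -0.17 and -0.20. Of 13 receptors measured, 0 were called, with 1 at an unadjusted p under 0.05 in wild type cells, Ptger4, a prostaglandin E2 receptor, at 0.60. Agtr1a, the angiotensin receptor, stood at -0.15 in human AHR and -0.35 in wild type cells.

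Genes known to respond to cAMP and CREB, as Rgs2 does, had 0 called of 20 measured. In human AHR cells 16 were negative, with a median of -0.11 and 1 gene at an unadjusted p under 0.05; in wild type cells 10 were negative, with a median of 0.04 and 4 such genes. These were 5% and 20.0% of the list, against 2.9% and 4.18% of all genes. The human AHR gene was the clock gene Per1 at -0.49, and the wild type genes were Dusp1, Id1, Nr4a2 (-0.54) and Egr1 (0.71). Dusp1, a phosphatase of MAP kinases, stood at -0.16 in human AHR and -0.40 in wild type cells. Id1, an inhibitor of helix-loop-helix factors, stood at -0.25 and -1.03, and Sik1, a kinase that dampens CREB signalling, at -0.44 and -0.36. Irs2, an insulin receptor substrate, was positive in both, at 0.28 and 0.52. For the change averaged over genotypes these 4 genes had a limma adjusted p of 0.997 each.

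Among the relatives of Zfp36l1, Zfp36 (tristetraprolin) and Zfp36l2 were measured, and 0 were called or had an unadjusted p under 0.05. Zfp36 averaged 1115 ± 100.2 with TCDD and 1128 ± 147 under vehicle in human AHR cells (SD, n = 3 each), a log2 change of -0.01. In wild type it averaged 1422 ± 607.4 with TCDD and 905.3 ± 354.5 under vehicle (SD, n = 3 each), a change of 0.61 (limma adjusted p = 0.966). On the wild type replicate 2 arrays, where Zfp36l1 was highest, Zfp36 was the lowest of its group, at 770.9 with TCDD and 634 under vehicle. Zfp36l2 stood at 0.18 in human AHR and 0.08 in wild type cells.

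The decay machinery that ZFP36L1 recruits had 0 of 38 genes called in either genotype, with medians of 0.02 in human AHR and 0.03 in wild type cells and 1 gene at an unadjusted p under 0.05 in each. That gene was Edc3, a scaffold of mRNA decapping, in both. It averaged 221.5 with TCDD against 145.9 under vehicle in human AHR cells (0.55), and 197.6 against 131 in wild type cells (0.52). Averaged over genotypes its change was 0.54 (limma adjusted p = 0.617). Tob1, which links deadenylase to its targets, stood at -0.31 and -0.22. Other binders of AU-rich elements had 0 of 14 called and 0 at an unadjusted p under 0.05, with medians of 0.01 in human AHR and 0.11 in wild type cells; Pum2, a PUF-family binder, stood at 0.08 and 0.31.

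Of 24 measured mRNAs described as bound by the ZFP36 family, 0 were called in limma and 3 in each genotype had an unadjusted p under 0.05, which is 12.5% of the list against 2.9% of all genes in human AHR and 4.18% in wild type cells. The median was -0.05 in human AHR cells, where 14 were negative, and 0.01 in wild type cells, where 11 were negative. These genes were Vegfa, Bcl2 and Ccl3 (-0.58), a chemokine, in human AHR cells, and Notch1, Egr1 (0.71) and the cytokine Il1b (0.74) in wild type cells. Vegfa, a growth factor for vessels, averaged 250.6 with TCDD against 384.7 under vehicle in human AHR cells (-0.58), and 213.2 against 291.9 in wild type cells (-0.40). Notch1, a receptor of cell fate, stood at 0.30 and 0.46, and Bcl2, an inhibitor of cell death with a dim signal, at -0.82 and -0.49. For these 3 genes the averaged change had a limma adjusted p of 0.997. Cyp7a1 read at most 29.5 on any array, near the median signal of the arrays, and bile acid synthesis had 0 of 14 genes called and 0 at an unadjusted p under 0.05.

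As a point of comparison, 2 of 14 AHR targets passed in human AHR cells and 1 in wild type cells, all higher. The list medians were 0.36 and 0.43. Of all genes, 0.022% and 0.0055% passed. The AHR targets that passed were Cyp1a1 (limma adjusted p = 0.0427) and Tiparp (0.00539) in human AHR cells and Tiparp (0.0193) in wild type cells. At an unadjusted p under 0.05 the list had 7 genes in human AHR and 6 in wild type cells. That was 50% and 42.9% of the list, against 2.9% and 4.18% of all genes. Leaving out any 1 human AHR array gave Cyp1a1 an adjusted p of 0.240 to 0.378 in human AHR cells. It gave Tiparp 0.0447 to 0.0620 in human AHR cells and 0.0575 to 0.0635 in wild type cells, and without both wild type replicate 2 arrays the wild type change of Tiparp had an adjusted p of 0.145. In human AHR cells, leaving out those 2 arrays gave Cyp1a1 an adjusted p of 2.024e-07 and Tiparp 0.00041.

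**Figure D4:**
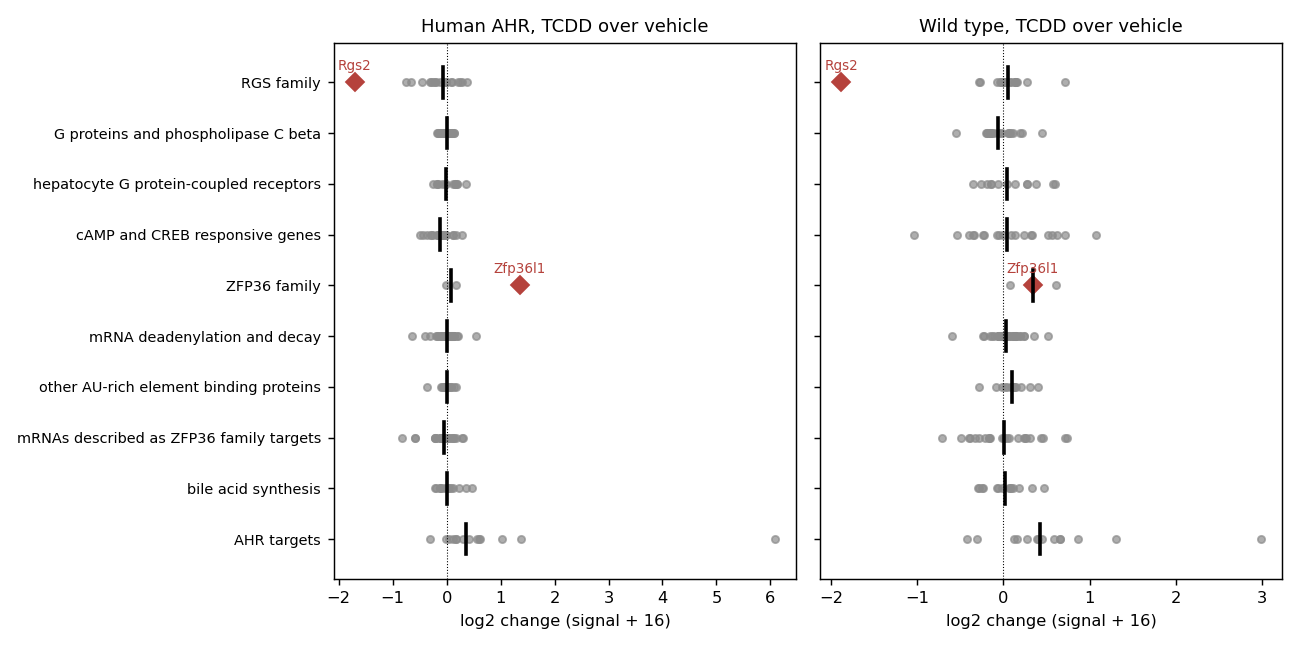
Log2 change of TCDD over vehicle (signal plus 16) for each measured gene of 10 gene lists, human AHR on the left and wild type on the right, with grey dots for genes, red diamonds for Rgs2 and Zfp36l1, and black bars for list medians without these 2 genes. Rgs2 lies at -1.70 and -1.88, apart from its family, and Zfp36l1 lies at 1.35 and 0.34.

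The genes most like Rgs2 over the 12 arrays, by Pearson r of log2 signal among the 10915 brighter genes, were AI661453 (0.91), Xiap (0.91), Slc25a11 (0.91), Rai2 (0.89) and Zbtb18 (0.88). Xiap inhibits caspases, Slc25a11 is the mitochondrial oxoglutarate carrier and Zbtb18 is a transcriptional repressor. Their TCDD changes were far smaller than that of Rgs2, from -0.54 to -0.15 in human AHR and from -0.58 to -0.29 in wild type cells. The genes most like Zfp36l1 were Ecel1 (0.94), Nfe2l2 (0.92), Depdc7 (0.91), Pigx (0.91) and Rnf217 (0.90). Nfe2l2 encodes the antioxidant regulator NRF2, Ecel1 a membrane metalloprotease, Pigx a subunit of glycolipid anchor synthesis and Rnf217 a ubiquitin ligase. Their changes ran from 0.60 to 2.10 in human AHR and from 0.16 to 0.60 in wild type cells. Likeness was measured on the arrays that chose the members, which share the treatment and the replicate numbers.

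None of the nearest genes on the chromosome passed the test. On chromosome 1 the nearest measured genes to Rgs2 are Uchl5, Ro60 and Glrx2 on one side and its relatives Rgs13, Rgs1 and Rgs18 on the other. The first 3 had averaged TCDD changes between -0.12 and -0.03, and the 3 RGS genes, all with group means of at most 12.15, between 0.00 and 0.02. On chromosome 12 the nearest measured genes to Zfp36l1 are 9430078K24Rik, Rad51b and Zfyve26 on one side and 2310015A10Rik, Actn1 and Dcaf5 on the other, with averaged changes between -0.22 and 0.31. Rad51b, a dim gene of DNA repair, averaged 16.93 with TCDD against 6.9 under vehicle in human AHR cells (0.53, limma adjusted p = 1) and stood at 0.09 in wild type cells. In limma 0 of these 12 genes were called or had an unadjusted p under 0.05, for TCDD in either genotype, for the averaged change or for genotype.

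Both transcripts are made by several liver cell types, and in RNA of whole cultures fewer cells of a type and less RNA per cell cannot be told apart. Summed cholangiocyte markers (5 of 6 measured) were lower with TCDD in 3 of 3 pairs of each genotype, like Rgs2. They ranged from 534.8 to 1147 in human AHR TCDD arrays against 543.4 to 1371 under vehicle, and from 602.3 to 694 in wild type TCDD arrays against 768.2 to 934.1 under vehicle. Most of that sum was Krt19, a keratin, while Cftr and Krt7 stayed at or below 19.4. Of the 5 genes, 2 were positive in each genotype, Epcam (0.19) and Krt7 (0.01) in human AHR and Sox9 (0.04) and Cftr (0.13) in wild type cells. Summed macrophage markers (11 of 11) were lower in 3 of 3 human AHR and 2 of 3 wild type pairs, at 1905 to 4882 with TCDD against 2090 to 5261 under vehicle in human AHR, and at 1873 to 4183 against 1898 to 3393 in wild type cells. Most of that sum was Cd68, and it hides a difference between genotypes. Averaged over treatments, 11 of 11 macrophage markers were higher in human AHR cells, with a median log2 difference of 1.48; 0 passed the limma test and 10 had an unadjusted p under 0.05, against 5.34% of all genes. C1qa, a complement subunit, averaged 153.7 with TCDD and 166.6 under vehicle in human AHR cells, against 2 and 9.37 in wild type cells. These means do not hold for each human AHR replicate. Replicate 1 summed to 1905 with TCDD and 2090 under vehicle, of which Cd68, at least 1712 on every array, was most. The other macrophage markers were thus low on those arrays, and the genotype difference rests mostly on human AHR replicates 2 and 3. The part of either cell type in the levels of Rgs2 and Zfp36l1 was not tested.

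Summed stellate and fibroblast markers (11 of 11) stayed between 133.4 and 321.6, but single genes differed with TCDD. Acta2, the smooth muscle actin of activated stellate cells, averaged 17.1 with TCDD against 53.07 under vehicle in human AHR cells (-1.15), and 15.38 against 34.13 in wild type cells (-0.65); its averaged change of -0.90 had a limma adjusted p of 0.872. Reln, a matrix protein of quiescent stellate cells, stood at 0.88 and 0.66 (averaged 0.77, limma adjusted p = 0.826). Their part in the change of Rgs2 was not tested. Of this list, 4 genes, Lrat, Col1a1, Pdgfrb and Lum, were below 16 on all arrays. Endothelial markers (9 of 9) stayed between 219 and 369.7, and lymphocyte markers (7 of 8) between 24.6 and 116.5, with Cd3e and Cd3g below 16 on all arrays. Not every list fell with TCDD as Rgs2 did. In wild type cells the summed hepatocyte, endothelial and lymphocyte markers were each higher with TCDD in 3 of 3 pairs. In human AHR cells they were higher in 2, 1 and 2 of 3 pairs, in that order. Summed stellate and fibroblast markers were higher in 1 of 3 pairs of each genotype.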

How the data were processed

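The deposited values were linear probe set intensities. The design text names GCOS, PLIER-MM in Affymetrix Expression Console 1.1 and SAM, per the submitters' processing notes; probes were named from GEO's platform annotation. The intensities had a 2% trimmed mean of 150 on 9 arrays and 500 on the 3 wild type TCDD arrays, so every array was rescaled to 150, and wild type treatment and deposited scaling coincide. After removal of 64 control probe sets, the brightest probe set of each single symbol represented 18193 genes. On log2(signal + 16), group means were fitted by limma 3.58.1 under R 4.3.3 (8 residual degrees of freedom, intensity trend), two-sided, Benjamini-Hochberg over all genes, threshold 0.05. The method was tested on simulated data. The members and lists were chosen with earlier results of these data known. Named genes were the members, the ZFP36 family, up to 4 genes per list with the smallest p for the averaged change, the 5 most alike, the 3 nearest on each side, Cyp1a1, Tiparp and Ahr; Rgs14, Per1, Nr4a2, Egr1, Ccl3, Cyp7a1, the marker genes and those next to Rgs2 in size of change were named after their values were seen. Same-numbered vehicle and TCDD arrays deviated together from their group means with r from 0.191 to 0.265 in human AHR cells. In wild type cells r was 0.25, 0.508 and 0.0485, and TCDD replicate 3 reached 0.283 with vehicle replicate 1. The wild type numbers are therefore not established as pairs. Arrays give no counts, and their number limits the precision. Figures were drawn with matplotlib 3.10.9.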

Additional observations from a re-analysis of the deposited data

How the results depend on the processing

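Under the alternatives run, the Rgs2 change with TCDD stayed negative in both genotypes and the Zfp36l1 change stayed positive in human AHR cells. With 1 array left out at a time, Rgs2 ranged from -2.35 to -1.27 in human AHR cells, from -2.49 to -1.23 in wild type cells and from -2.12 to -1.47 for the mean of both. Its difference between genotypes ranged from -0.47 to 0.78 for the TCDD change and from -0.82 to -0.26 for the level. Zfp36l1 ranged from 1.22 to 1.44 in human AHR cells, from -0.08 to 0.57 in wild type cells, from 0.64 to 0.96 for the mean, from 0.79 to 1.43 for the difference of changes and from 0.12 to 0.45 for the level between genotypes. That level was -0.27 with vehicle arrays alone and 0.74 with TCDD arrays alone. With the replicate block the log2 values were the same, at -1.70 and -1.88 for Rgs2 and 1.35 and 0.34 for Zfp36l1, with smaller errors, and 5 genes were called in human AHR cells, 1 in wild type cells and 6 for their mean. With means of same-numbered arrays, an alternative chosen after seeing the data, the exact permutation test of genotype gave p = 0.6 for Rgs2 and 0.5 for Zfp36l1. For the dimmer Zfp36l1 probe set, 1422528_a_at, that test gave 0.2, and 0.1 is the smallest it allows.

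The number of genes called by limma moved more. For TCDD in human AHR cells it was 4, against 2 with quantile normalization, 2 without the intensity trend, 1 with the mean over probe sets and 0 to 6 with 1 array left out. For TCDD in wild type cells it was 1, against 0 without the trend, 2 with array weights, 2 with every probe set, 0 without both wild type replicate 2 arrays and 0 to 1 with 1 array left out. For the averaged change it was 4, against 1 with the mean over probe sets and 2 to 5 with 1 array left out. For the difference of changes it was 0 (573 genes at an unadjusted p under 0.05), against 1 without both wild type replicate 2 arrays and 0 to 1 with 1 array left out. For genotype averaged over treatments it was 6, against 11 with array weights, 10 with every probe set, 2 with vehicle arrays alone, 1 with TCDD arrays alone and 5 to 7 with 1 array left out. The cause of these shifts was not tested.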

Other observations

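The wild type replicate 2 arrays, which carried the Xist signal, were the highest of their group in Rgs2, Zfp36l1 and Ahr alike. In human AHR cells, where Xist read at most 29.3, replicate 2 was the lowest array of its group in Rgs2 under both treatments, at 45.6 with TCDD against 91.7 under vehicle.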
